A study of Rattus norvegicus with 9 samples.

Results

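Messenger RNA of 7 genes used as markers of lymphatic endothelium, Prox1, Flt4, Lyve1, Pdpn, Reln, Mmrn1 and Sema3d, was followed across 9 artery libraries of adult rat offspring. The genes were taken by symbol from a fixed list. Each symbol stood on 1 line of the count tables, so all 7 were found among 30452 features. Mesenteric and pulmonary arteries had been dissected under a microscope from offspring aged 3 to 5 months, and RNA sequencing counted reads per gene. All dams ate standard diet. The control dams drank ordinary water in pregnancy and the high-sucrose dams drank water with 20% sucrose. Control offspring gave a mesenteric group (labelled MAC, replicates 1, 2 and 3) and a pulmonary group (PAC, replicates 1, 2 and 4), and high-sucrose offspring gave a mesenteric group (MAH, replicates 1, 2 and 3). The labels give no strain, no sex and no statement that samples came from separate animals or litters, so p-values measure the spread between these samples, which may be technical. Pulmonary arteries of high-sucrose offspring were not analysed here.

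Lymphatic vessels drain fluid and immune cells from tissue and run beside arteries in the mesentery and in the outer wall of large vessels. Their endothelium is set apart from that of blood vessels by the transcription factor PROX1 and grows in response to the ligands VEGF-C and VEGF-D, which bind the receptor FLT4 (VEGFR-3). None of the 7 genes is made by lymphatic endothelium alone. Lyve1 is also made by macrophages of vessel walls, Pdpn by mesothelium, lung alveolar cells and lymph node stroma, Mmrn1 by megakaryocytes and platelets, and Prox1 by heart muscle. In RNA of whole tissue, fewer cells of a type and less RNA per cell cannot be told apart.

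Total counts per library ran from 10388231 to 15420546, and levels are given as CPM (counts scaled to a common library total), with totals adjusted by TMM, a correction for differences in RNA composition. All libraries held the smooth muscle gene Acta2 (748 to 8244 CPM) and the endothelial gene Pecam1 (203 to 1064 CPM). Libraries of a group were not alike. Mesenteric control replicate 2 had the lowest summed level of 8 smooth muscle genes among the mesenteric libraries (11526 CPM, against 18424 to 44590 CPM in the others). Pulmonary replicate 2 had the highest level of 14 of 14 heart muscle genes. Pulmonary replicate 4 had the highest level of 14 of 14 lymph node and lymphocyte genes and of 10 of 12 lung epithelium genes. Mitochondrial genes took 27.1% of its counts, against 12.8% to 20.1% elsewhere. Its summed smooth muscle genes were at 3685 CPM, the lowest of all libraries, against 22241 and 23835 CPM in the other pulmonary libraries. Its sums of fibroblast genes (3443 CPM), blood endothelium markers (921 CPM) and fat genes (157 CPM) were also the lowest of all libraries. The part of this low artery wall RNA in its lymphatic marker levels was not tested.

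Stretches of 250 bases upstream of the annotated start were read from RefSeq (build GRCr8) for the 6 genes with an entry in the promoter table. Counts were made on rn7, so these positions are not those of the count tables. The 4 shown are Reln and Mmrn1, whose pulmonary and mesenteric control levels did not overlap, Lyve1, which like Mmrn1 was lowest in pulmonary replicate 4, and Sema3d, which was highest in pulmonary replicates 1 and 2. The Mmrn1 window lies inside the span annotated for that gene. Each is written 5′ to 3′ along the gene, and capitals mark the letters AGGAAG or their reverse complement, a core bound by ETS factors of endothelium.
Reln, chr4:13628318-13628567, plus strand: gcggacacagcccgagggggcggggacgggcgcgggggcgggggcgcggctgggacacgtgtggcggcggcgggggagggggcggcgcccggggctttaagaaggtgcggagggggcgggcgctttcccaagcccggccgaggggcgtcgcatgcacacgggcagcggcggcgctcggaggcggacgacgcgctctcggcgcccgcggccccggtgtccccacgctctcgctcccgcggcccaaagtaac
Mmrn1, chr4:91233166-91233415, plus strand: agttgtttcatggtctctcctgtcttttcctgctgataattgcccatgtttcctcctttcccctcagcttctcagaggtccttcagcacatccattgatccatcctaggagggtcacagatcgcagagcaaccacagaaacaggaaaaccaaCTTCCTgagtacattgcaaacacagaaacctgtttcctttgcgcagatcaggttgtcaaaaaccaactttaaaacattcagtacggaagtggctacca
Lyve1, chr1:174410978-174411227, minus strand: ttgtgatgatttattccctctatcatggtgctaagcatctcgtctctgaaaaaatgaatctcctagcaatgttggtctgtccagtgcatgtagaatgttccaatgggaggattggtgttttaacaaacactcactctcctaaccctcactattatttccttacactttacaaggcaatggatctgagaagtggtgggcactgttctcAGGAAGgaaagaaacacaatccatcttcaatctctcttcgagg
Sema3d, chr4:23460972-23461221, minus strand: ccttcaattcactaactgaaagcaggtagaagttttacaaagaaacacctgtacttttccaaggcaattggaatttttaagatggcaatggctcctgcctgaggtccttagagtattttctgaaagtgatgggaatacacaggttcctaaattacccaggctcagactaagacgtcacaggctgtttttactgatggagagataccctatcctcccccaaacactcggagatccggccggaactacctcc
The upstream stretch of Reln was 80.0% G and C and that of Flt4 76.0%, above the upper quartile of the table (60.0%). Mmrn1 (45.6%), Sema3d (44.8%) and Pdpn (51.6%) lay between the quartiles, and Lyve1 (41.6%) below the lower quartile (44.0%). AGGAAG, searched on both strands, was found in Lyve1 (first base 43 before the start), Mmrn1 (98 before) and Flt4 (228 before), and in 29.51% of 33469 promoters. AGGTCA, a core bound by nuclear receptors such as NR2F2, was found in Pdpn (91 before the start) and in 14.06% of promoters. The SOX core AACAAT was in 10.33% of promoters and in the window of none of these 6 genes. The same search for the FOX core GTAAACA found it in 3.215% of promoters, again without a match among the markers. The GATA core AGATAA, present in 10.3% of promoters, had no match among the markers either. The motifs searched do not overlap each other in these windows, and a match describes letters, not a bound site.

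All 7 markers were counted in all 9 libraries, the lowest value being 5 counts for Prox1. The levels did not move as 1 block. Reln and Mmrn1 were lower in every pulmonary library than in any mesenteric library, Lyve1 and Flt4 were lower in the pulmonary mean with overlap, Pdpn and Prox1 showed no order between tissues, and Sema3d was highest in pulmonary replicates 1 and 2. Within the mesenteric controls, replicate 2 was the highest library for 6 of 7 markers, and within the high-sucrose group replicate 2 was the highest for 5 of 7. The plot of marker levels by library shows this spread.

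**Figure D1:**
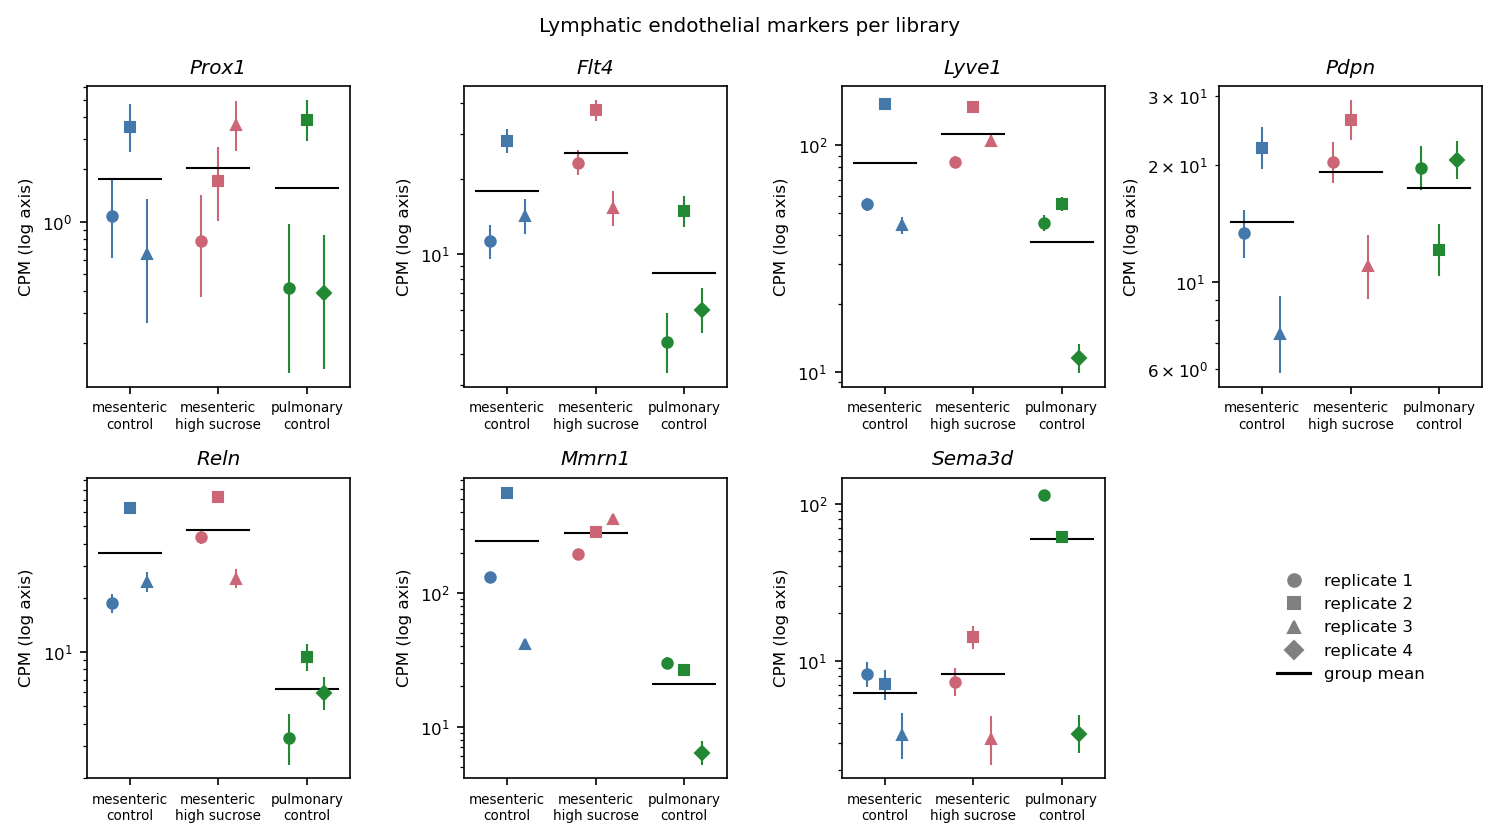
CPM (log axis) of the 7 lymphatic markers in each library, by group. Points are libraries (symbol by replicate) with exact Poisson intervals at 95% confidence, which cover counting error only, and black lines are group means. Reln and Mmrn1 sit lower in all pulmonary libraries, and Sema3d reaches 114 CPM in pulmonary replicate 1 but 3.42 CPM in replicate 4.

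The first comparison asked how pulmonary and mesenteric artery of control offspring differ. No marker passed the test over all genes (edgeR's quasi-likelihood test, adjusted p under 0.05): 0 of 7, where 2 of 14315 genes passed (0.014%), both lower in pulmonary artery and neither of them a marker. At an unadjusted p under 0.05 there were 3 of 7 markers, Reln, Mmrn1 and Sema3d, against 8.53% of all genes. DESeq2, another count test, called the same 3 with adjusted p of 0.00762, 0.0105 and 0.0374, while it called 3.1% of the genes it tested, and limma-voom with quality weights called no marker. Pulmonary and mesenteric control levels did not overlap for 2 of 7 markers, Reln and Mmrn1, both lower in pulmonary artery, where 7.59% of all genes were lower without overlap. The median log2 fold change of the 7 was −1.10, beside 0.058 over all genes tested, and it was −0.41 without mesenteric control replicate 2 and −1.77 without pulmonary replicate 2.

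Prox1 encodes the homeodomain transcription factor that starts and maintains lymphatic identity. Its level was 1.08, 3.53 and 0.65 CPM in mesenteric control replicates 1, 2 and 3, from 16, 41 and 7 counts. It was 0.77, 1.71 and 3.63 CPM in high-sucrose replicates 1, 2 and 3. In pulmonary replicates 1, 2 and 4 it was 0.41, 3.87 and 0.39 CPM, from 5, 54 and 6 counts. A single library in each group thus stood above the rest (mesenteric control 2, high-sucrose 3 and pulmonary 2), and the groups overlapped. The pulmonary minus mesenteric log2 fold change was −0.20 ± 1.09 (SE), with an adjusted p of 0.962 by edgeR. It was −2.11 without pulmonary replicate 2 and 0.83 without mesenteric control replicate 2. Pulmonary replicate 2 was also the library with the most heart muscle RNA: Myh6, the atrial myosin heavy chain, was at 6074 CPM there, 465 CPM in pulmonary replicate 4 and 2.65 CPM in replicate 1, and the part of heart muscle in its Prox1 level was not tested.

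Flt4 encodes VEGFR-3, the receptor through which VEGF-C and VEGF-D drive lymphatic growth. It was at 11.2, 28.2 and 14.2 CPM in mesenteric control replicates 1, 2 and 3, at 23.1, 37.4 and 15.3 CPM in the respective high-sucrose libraries, and at 4.47, 14.8 and 6.00 CPM in pulmonary replicates 1, 2 and 4. Pulmonary replicates 1 and 4 lay below all 6 mesenteric libraries, and pulmonary replicate 2 lay within the mesenteric controls. The log2 fold change, pulmonary minus mesenteric control, was −1.10 ± 0.58 (SE, adjusted p = 0.633 by edgeR), −0.59 without mesenteric control replicate 2 and −1.77 without pulmonary replicate 2.

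Lyve1 encodes a receptor for hyaluronan on lymphatic capillaries. Its level was 54.9, 152 and 44.3 CPM in mesenteric control replicates 1, 2 and 3. The respective high-sucrose libraries were at 84.8, 147 and 105 CPM, and those of pulmonary replicates 1, 2 and 4 at 45.5, 55.1 and 11.5 CPM. The pulmonary libraries 1 and 2 lay near mesenteric controls 1 and 3, and pulmonary replicate 4 was the lowest of the 9. Its log2 fold change between tissues was −1.19 ± 0.70 (SE, adjusted p = 0.656 by edgeR) and −0.41 without mesenteric control replicate 2. Macrophages are the other main source of Lyve1 in a vessel wall. Of 11 macrophage genes found, none was at 0 in any library, and their sum was 305 to 842 CPM in mesenteric control, 521 to 646 CPM in high-sucrose and 444 to 538 CPM in pulmonary libraries. Single macrophage genes differed in pulmonary replicate 4. Mrc1 (13.4 CPM), Cd163 (7.29 CPM) and F13a1 (5.81 CPM) were at their lowest there among the 9 libraries, like Lyve1, whereas Cd68 (29.2 CPM), C1qa (119 CPM) and C1qb (122 CPM) were at their highest, and Csf1r was at 78.7 CPM, between pulmonary replicates 1 (60.9 CPM) and 2 (82.4 CPM). The part of macrophages in the Lyve1 level was not tested.

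Pdpn encodes podoplanin, a membrane mucin that binds the platelet receptor CLEC-2. It was at 13.3, 22.1 and 7.38 CPM in mesenteric control replicates 1, 2 and 3, at 20.3, 26.1 and 11.0 CPM in the respective high-sucrose libraries, and at 19.6, 12.1 and 20.6 CPM in pulmonary replicates 1, 2 and 4. The 3 groups overlapped throughout. The log2 fold change between tissues was 0.29 ± 0.47 (SE, adjusted p = 0.867 by edgeR), 0.77 without mesenteric control replicate 2 and −0.032 without replicate 3. Among the 7 markers, Pdpn alone had its highest pulmonary level in replicate 4. That library also had the highest sums of mesothelium, lung epithelium and lymph node genes. The sum of 8 mesothelium genes was 250 CPM there, against 112 and 26.2 CPM in pulmonary replicates 1 and 2 and 8.78 to 21.1 CPM in mesenteric libraries. Of these 8 genes, 3 were highest in pulmonary replicate 4 (Msln at 137 CPM, Krt8 at 64.1 CPM and Krt18 at 38.6 CPM, the last 2 being keratins of other epithelia too), and 3 were highest in pulmonary replicate 1 (Upk3b at 16.5 CPM, Lrrn4 at 12.4 CPM and Bnc1 at 3.64 CPM, against 3.81, 2.97 and 1.03 CPM in replicate 4). The sum of 12 lung epithelium genes was 890 CPM, against 19.0 and 125 CPM in pulmonary replicates 1 and 2. For 14 lymph node and lymphocyte genes the sum was 2546 CPM, against 38.8 and 31.8 CPM in those 2 libraries. Among the mesenteric libraries Msln reached 0.57 CPM at most. The part of these cells in the Pdpn level was not tested.

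Reln encodes reelin, a large secreted glycoprotein that collecting lymphatic vessels release to their muscle cells. Its level was 18.6, 63.5 and 24.6 CPM in mesenteric control replicates 1, 2 and 3, and the respective high-sucrose libraries were at 43.6, 73.1 and 25.6 CPM. In pulmonary replicates 1, 2 and 4 it was 3.31, 9.38 and 5.94 CPM. All pulmonary libraries lay below all mesenteric libraries. The means were 35.6 ± 24.4 CPM in mesenteric and 6.21 ± 3.04 CPM in pulmonary controls (SD, n = 3 per group). For Reln the log2 fold change was −2.53 ± 0.62 (SE, adjusted p = 0.383 by edgeR), and it ran from −2.94 to −1.79 with 1 library left out, nearest to 0 without mesenteric control replicate 2. Over all alternatives its adjusted p ran from 0.00762 (DESeq2) to 0.945.

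Mmrn1 encodes multimerin 1, a secreted protein that binds coagulation factor V and is stored in platelets and endothelial cells. Its level was 131, 563 and 41.4 CPM in mesenteric control replicates 1, 2 and 3, so the highest was 13.6 times the lowest. In high-sucrose replicates 1, 2 and 3 it was 194, 283 and 357 CPM. In pulmonary replicates 1, 2 and 4 it was 30.1, 26.4 and 6.39 CPM. All pulmonary libraries lay below all mesenteric libraries, but mesenteric control replicate 3 was near pulmonary replicate 1. The means were 245 ± 279 CPM in mesenteric and 21.0 ± 12.8 CPM in pulmonary controls (SD, n = 3 per group). For Mmrn1 the log2 fold change was −3.58 ± 1.08 (SE, adjusted p = 0.466 by edgeR, 0.0105 to 0.973 over all alternatives), and −2.03 without mesenteric control replicate 2. Of 9 platelet genes, 6 were highest in mesenteric control replicate 2. Pf4, platelet factor 4, was at 88.6 CPM there and at 20.2 and 8.13 CPM in replicates 1 and 3. The sum of 9 platelet genes was 33.0 to 189 CPM in mesenteric control, 52.9 to 73.2 CPM in high-sucrose and 32.3 to 119 CPM in pulmonary libraries, with Gp1bb at 0 in every library. Itgb3 made up much of the high-sucrose sums, at 47.5, 54.7 and 17.6 CPM in replicates 1, 2 and 3. Pf4 was at 11.5, 7.97 and 17.0 CPM in these libraries and at 42.1, 9.88 and 11.0 CPM in pulmonary replicates 1, 2 and 4. Within each group, the library highest in Pf4 was also the highest in Mmrn1. Between groups the order differed: pulmonary replicate 1 had 30.1 CPM of Mmrn1 and high-sucrose replicate 3 had 357 CPM. The part of platelets in the Mmrn1 level was not tested.

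Sema3d encodes a secreted class 3 semaphorin, a guidance cue that acts through neuropilin and plexin receptors. It was at 8.21, 7.06 and 3.36 CPM in mesenteric control replicates 1, 2 and 3 while the respective high-sucrose libraries were at 7.33, 14.0 and 3.15 CPM. In pulmonary replicates 1, 2 and 4 it was 114, 61.1 and 3.42 CPM. Pulmonary replicates 1 and 2 stood above all mesenteric libraries, whereas pulmonary replicate 4 was within them, 33.4 times below replicate 1. The log2 fold change was 3.25 ± 1.10 (SE, adjusted p = 0.515 by edgeR, 0.0359 to 0.965 over all alternatives), 3.81 without pulmonary replicate 4 and 2.37 without pulmonary replicate 1. In pulmonary replicate 1, where Sema3d was highest, Reln and Flt4 were the lowest of the 9 libraries, Mmrn1 was the highest of the pulmonary group, Lyve1 and Pdpn were within the range of the mesenteric controls, and Prox1 had 5 counts.

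**Figure D2:**
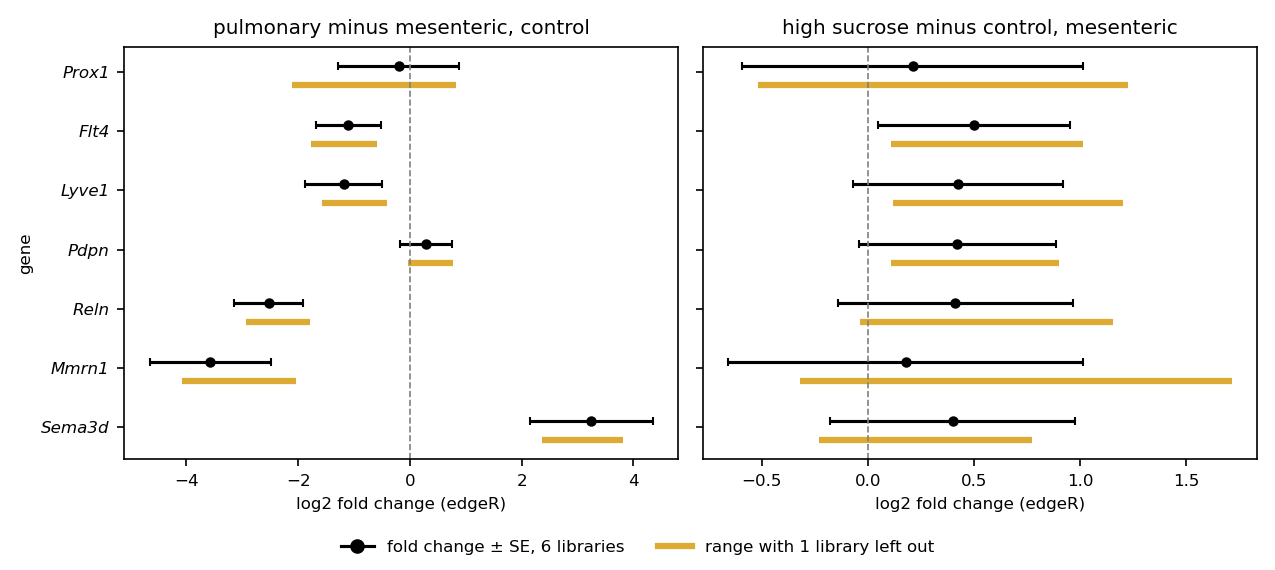
Log2 fold changes of the 7 markers for pulmonary minus mesenteric control artery (left) and for high-sucrose minus control mesenteric artery (right). Points with bars are edgeR estimates ± SE from 6 libraries, and yellow bars span the estimates with 1 library left out. Left, Mmrn1, Reln, Lyve1 and Flt4 lie below 0 and Sema3d above 0 over their whole yellow bars, and the horizontal scales of the panels differ.

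The second comparison asked whether sucrose in the dams' water went with a difference in mesenteric artery of the offspring. No marker passed (0 of 7), and neither did any of 13995 genes (0%) by edgeR. At an unadjusted p under 0.05 there were 0 of 7 markers against 1.99% of all genes, DESeq2 called 3 genes (0.0133%) and no marker, and limma-voom called 0. The fitted log2 fold change was above 0 for 7 of 7 markers, where it was above 0 for 7041 of 13995 genes. The median of the markers was 0.41, beside 0.0024 over all genes tested. Other cell type lists had medians as far from 0: fat genes were higher for 5 of 6 (median 0.69) and fibroblast genes lower for 12 of 13 (median −0.42), with 0 called in both. The fat sum was highest in high-sucrose replicate 2 (1544 CPM, against 608 to 1260 CPM in the other mesenteric libraries), the library highest in its group for 5 of 7 markers, and the part of fat tissue was not tested. Flt4 had the largest, 0.50 ± 0.45 (SE), followed by Lyve1 at 0.42 ± 0.49, Pdpn at 0.42 ± 0.46, Reln at 0.41 ± 0.55, Sema3d at 0.40 ± 0.58, Prox1 at 0.21 ± 0.80 and Mmrn1 at 0.18 ± 0.83 (adjusted p = 1.00 for each, by edgeR). The groups overlapped for 7 of 7 markers, where 5.99% of all genes did not overlap and 3.33% were lower in the high-sucrose group without overlap. The sum of the 7 was 136 to 839 CPM in control and 374 to 583 CPM in high-sucrose libraries, so the control group held both the lowest and the highest mesenteric library.

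The size of these differences depended on single libraries. The median of the markers was 0.11 without control replicate 3, 0.14 without high-sucrose replicate 2, 0.19 without control replicate 1, 0.48 without high-sucrose replicate 1 and 0.69 without high-sucrose replicate 3. Without control replicate 2 the median log2 fold change of the markers was 1.15, with 7 of 7 above 0, from 0.51 to 1.71, and 4 of 7 at an unadjusted p under 0.05, where 5.67% of all genes were (2.8% for higher in high-sucrose). Even then edgeR called 0 genes. Mmrn1 had the widest range, from −0.32 without control replicate 3 to 1.71 without control replicate 2. The sign of Reln, Sema3d, Prox1 and Mmrn1 turned when certain libraries were left out, while that of Lyve1, Flt4 and Pdpn did not, with lowest values of 0.12, 0.11 and 0.11.

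In order of group means, high-sucrose mesenteric artery was highest, control mesenteric artery second and pulmonary artery lowest for Reln, Mmrn1, Lyve1, Flt4 and Prox1. For Pdpn the order was high-sucrose, pulmonary, control, and for Sema3d pulmonary, high-sucrose, control. The neighbouring mesenteric groups overlapped for every marker. Pulmonary control and high-sucrose mesenteric levels, which differ in tissue and in the dams' water at once, did not overlap for 4 of 7 markers (Reln, Mmrn1, Lyve1 and Flt4, all lower in pulmonary), where 8.78% of genes were lower without overlap.

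Pecam1, made by endothelium of blood and lymph vessels alike, was at 554, 790 and 1064 CPM in mesenteric control replicates 1, 2 and 3 and at 403, 457 and 203 CPM in pulmonary replicates 1, 2 and 4. The markers were therefore also expressed per 100 Pecam1 counts of the same library. On this scale Reln was 2.31 to 8.04 in mesenteric control and 0.82 to 2.92 in pulmonary libraries, and Mmrn1 was 3.89 to 71.3 and 3.14 to 7.48, so both overlapped between tissues. Lyve1 was 4.16 to 19.2 and 5.65 to 12.1, and Flt4 was 1.33 to 3.57 and 1.11 to 3.25, with the pulmonary range close to or inside the mesenteric one. Sema3d was 0.32 to 1.48 in mesenteric control and 1.68 to 28.3 in pulmonary libraries, the only marker without overlap between the tissues on this scale (1 of 7). This count is not set apart from other genes, since 48.6% of all genes tested did not overlap when divided by Pecam1. Between the mesenteric groups 0 of 7 markers were without overlap on this scale, where 2.06% of genes were. Within the mesenteric controls Mmrn1 per 100 Pecam1 counts was 23.7, 71.3 and 3.89 in replicates 1, 2 and 3, so its spread there stayed wide on this scale.

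**Figure D3:**
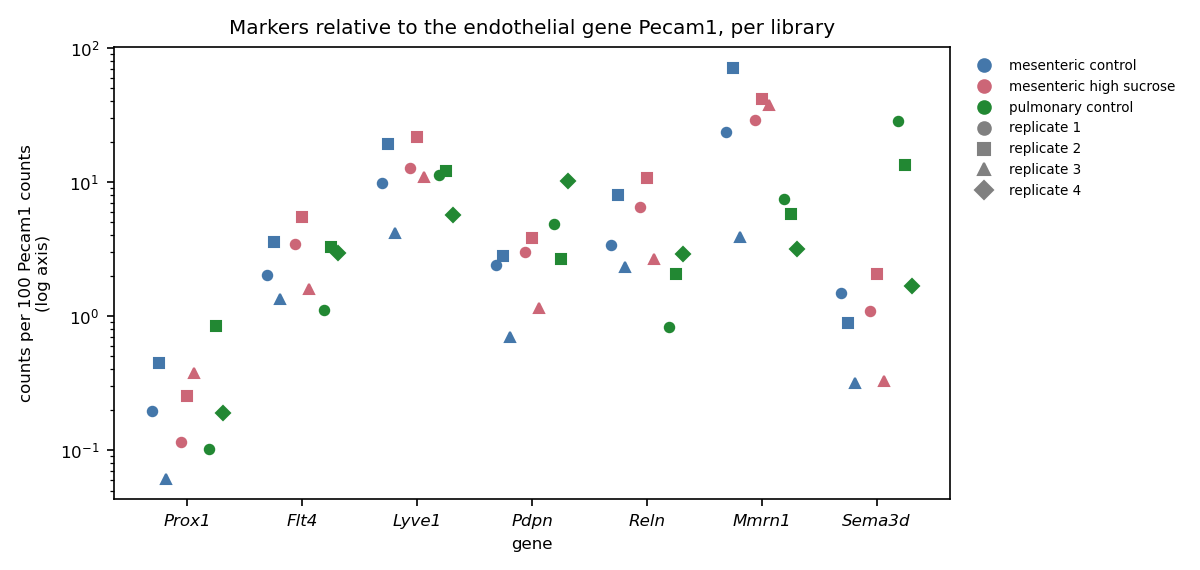
Counts of each lymphatic marker per 100 counts of Pecam1 in the same library (log axis), coloured by group, with symbols by replicate. Levels are not corrected for gene length, so they compare libraries for a gene and not genes with each other. Pulmonary and mesenteric control libraries overlap for all markers except Sema3d.

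Summed blood endothelium markers (12 found, none at 0 in any library) ran from 1845 to 4192 CPM in mesenteric control, 2105 to 5747 CPM in high-sucrose and 921 to 2523 CPM in pulmonary libraries. They were highest in high-sucrose replicate 3, where Mmrn1 and Prox1 were the highest of their group, Reln, Sema3d, Pdpn and Flt4 the lowest, and Lyve1 in between. Mesenteric control replicate 3 had more of these markers (3329 CPM) than replicate 1 (1845 CPM). Of the 7 lymphatic markers, Reln and Flt4 were higher in replicate 3 than in replicate 1, and Mmrn1, Sema3d, Prox1, Lyve1 and Pdpn were lower. The map of centred levels shows lymphatic markers and other cell types side by side.

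**Figure D4:**
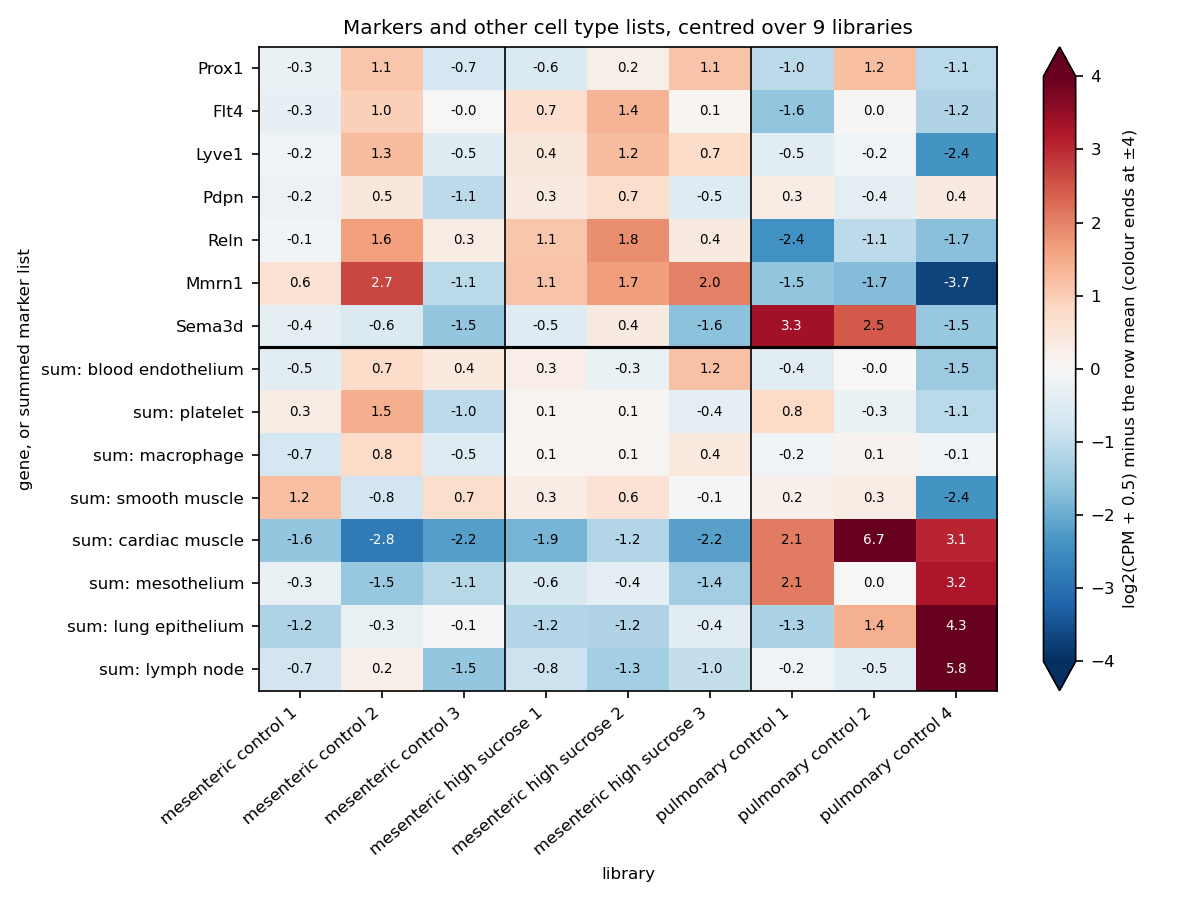
Log2(CPM + 0.5) of the 7 markers (upper rows) and of summed marker lists of other cell types (lower rows) in 9 libraries, each minus its row mean, with colour ends at ±4. Mesenteric control replicate 2 is above the row mean for 6 of 7 markers and for the platelet, macrophage, blood endothelium and, by little, lymph node sums. Pulmonary replicate 4 is below it for 6 of 7 markers and above it for lymph node, lung epithelium, mesothelium and heart muscle sums.

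Among members, likeness was measured as the root mean square difference of centred log2 CPM over the 9 libraries, where 0 is the same profile. Of 21 pairs the closest were Reln and Flt4 (0.60), Lyve1 and Flt4 (0.63) and Prox1 and Flt4 (0.82). The farthest were Mmrn1 and Sema3d (2.89) and Reln and Sema3d (2.64). The mean profile of the 6 markers with at least 10 counts in every library was highest in high-sucrose replicate 2 (1.20 above its mean) and mesenteric control replicate 2 (1.07) and lowest in pulmonary replicate 4 (−1.68). Of 11727 features with a symbol and a mean of at least 1 log2 CPM, the nearest to it was Xdh, the xanthine dehydrogenase, at 0.21, followed by Dclk2 (0.31), Tmod2 (0.35), Retsat (0.35), B3galt1 (0.36), Ralgapa2 (0.37), Exoc6b (0.37) and Flrt2 (0.37), where the median feature was at 0.94. Xdh was at 379 CPM in mesenteric control replicate 2 and 518 CPM in high-sucrose replicate 2, and at 66.5 CPM in pulmonary replicate 4. These profiles share the libraries and their depth, and likeness is a description.

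Other genes of lymphatic growth and function gave the setting of these markers, and none passed the edgeR test in either direction in either comparison. Over all genes tested, 6512 of 14315 were lower in pulmonary than mesenteric control artery. Beside the lymphatic genes, 11 of 12 blood endothelium markers were lower there, with a median log2 fold change of −1.16. Of the lymphatic lists, the symbols Vegfd, Ramp2, Maf and Ackr4 were not found among the features, so no level of VEGF-D messenger RNA is given. Of 14 ligands and their processing factors found, 10 were lower and 4 higher in pulmonary than mesenteric control artery (median −0.47). Ccbe1, which helps mature VEGF-C, was at 24.0 ± 18.7 and 4.74 ± 3.79 CPM (SD, n = 3 per group), a log2 fold change of −2.37 that was −1.50 without mesenteric control replicate 2 (45.2 CPM, against 16.8 and 9.90 CPM in replicates 1 and 3) and −3.21 without pulmonary replicate 2. Angpt1, a ligand of the TEK receptor, was at 28.1 ± 7.93 and 9.98 ± 5.14 CPM (−1.51). Vegfc, the ligand of FLT4, had a log2 fold change of −1.10 ± 0.47 (SE, adjusted p = 0.593 by edgeR), and the groups overlapped. Sema3a, a relative of Sema3d, was at 2.72 ± 1.84 and 12.1 ± 9.48 CPM (2.12, but 2.84 without mesenteric control replicate 2 and 1.41 without pulmonary replicate 2).

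Of 19 receptors and adhesion partners, 14 were lower in pulmonary artery (median −0.50, but 0.10 without mesenteric control replicate 2). Calcrl, the receptor of adrenomedullin, which lymphatic vessels need in development, was at 41.5, 116 and 42.7 CPM in mesenteric control replicates 1, 2 and 3 and at 10.3, 11.7 and 8.13 CPM in pulmonary replicates 1, 2 and 4, without overlap. For Calcrl the difference was −2.75 ± 0.49 on the log2 scale (SE, adjusted p = 0.201 by edgeR), and −2.06 without mesenteric control replicate 2. Plxnd1, a semaphorin receptor, was at 238 ± 83.4 and 118 ± 23.2 CPM (−1.01), and Tek at 206 ± 85.3 and 85.4 ± 42.9 CPM (−1.28). Of 11 transcription factors, 8 were lower (median −0.72). Nr2f2, the venous and lymphatic nuclear receptor that acts with PROX1, was at 159 ± 38.9 and 42.4 ± 12.9 CPM (−1.91 ± 0.32 SE, adjusted p = 0.173 by edgeR), and Klf4, a factor induced by flow, at 350 ± 298 and 85.9 ± 15.5 CPM (−2.03, but −1.07 without mesenteric control replicate 3, which was at 693 CPM).

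Of 11 tested further genes of lymphatic vessels, 9 were lower in pulmonary artery (median −1.22). Ccl21, the chemokine that draws dendritic cells and T cells into lymphatic vessels, was at 230, 302 and 128 CPM in mesenteric control replicates 1, 2 and 3, at 287, 309 and 105 CPM in the respective high-sucrose libraries, and at 20.0, 20.1 and 120 CPM in pulmonary replicates 1, 2 and 4. All pulmonary libraries were below the mesenteric controls, and replicate 4, the library rich in lymph node genes, was the highest pulmonary library. Its log2 fold change was −2.02, and −3.45 without that library. Ccl21 is also made by lymph node stroma, and Ccl19, a stromal partner, was at 182 CPM in that library and 3.15 to 5.47 CPM in pulmonary replicates 1 and 2. The part of lymph node tissue in Ccl21 was not tested. Ackr2, a scavenging chemokine receptor of lymphatic endothelium, was at 41.4 ± 6.57 and 10.7 ± 6.43 CPM (−1.97), and Cldn11, a claudin of lymphatic valves, at 8.32 ± 9.57 and 1.31 ± 0.19 CPM (−2.68, but −1.08 without mesenteric control replicate 2, which was at 19.4 CPM). Genes named from the lymphatic lists were among those with the smallest p, apart from Vegfc, and Vegfc and the single markers of other cell types were chosen after their values were seen.

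In the comparison of high-sucrose with control mesenteric artery the medians of the same lists were −0.11 for ligands, 0.21 for receptors, 0.10 for transcription factors and −0.081 for the further genes, beside 0.0024 over all genes, and each of these 4 medians changed sign when some single library was left out. Angpt1 was at 14.6 ± 5.10 CPM in the high-sucrose group (log2 fold change −0.94) and Sema3c at 62.6 ± 11.0 CPM against 112 ± 15.7 CPM in control (−0.83), with adjusted p of 1.00 for both by edgeR. Thy1, one of the further genes and also on the fibroblast list, was at 7.76 ± 1.31 CPM against 16.8 ± 3.21 CPM in control (−1.11). Lrp8, a receptor of reelin, had a mean of 1.57 ± 0.98 CPM in control libraries, beside 4.06 ± 1.84 CPM with high sucrose (1.38, SD, n = 3 per group). Its control counts were 8, 29 and 18 in replicates 1, 2 and 3. The receptors and partners with the next smallest p were lower with high sucrose: Clec1b (−1.71), Vldlr (−0.35) and Dab1 (−0.77). Of the 19 tested, 13 were higher and 6 lower. Blood endothelium markers had 10 of 12 genes above 0 (median 0.24, from −0.10 to 0.69 with 1 library left out), and 0 of 12 passed.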

How the data were processed

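Gene counts of 9 artery libraries (3 groups of 3) were used. The authors deposited whole-number counts per gene, without normalization, and the genome build is rn7 per the submitters' processing notes. For the aligner, counter, annotation and strand setting: not given in the sources used here. Thus reads shared with pseudogenes or antisense transcripts cannot be told apart. Of 30452 features per file, 7092 had an Ensembl identifier and no symbol. Depth was 10388231 to 15420546 counts per library, and reads carry no molecular identifiers, so Poisson intervals (95% confidence) cover counting error only.

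Groups came from the sample titles. Each comparison was fitted on its 6 libraries with the quasi-likelihood test of edgeR 4.0.16 in R 4.3.3 (TMM factors, filterByExpr, robust dispersion), with Benjamini-Hochberg adjustment over all genes and a threshold of 0.05. All 7 markers passed the filter. Each SE was taken as the fold change (log2) over the root of the F statistic. Displayed CPM used TMM factors over all 9 libraries. Alternatives included DESeq2 1.42.0 and limma 3.58.1, other factors and filters, 1 fit of all 9 libraries, a replicate block and each library left out. Pulmonary replicate 1 as the only pulmonary library was added after seeing the data. The test was tried on simulated data.

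The markers and the 16 other lists were chosen with earlier results of these data known. Of 199 list genes, 187 were found by symbol. The rule for naming took all 7 markers, up to 4 genes with the smallest p per list and comparison, and the 8 features nearest to the mean marker profile. Counts of any 2 libraries of the same group differed far beyond counting noise (chi-square over its degrees of freedom from 42.5), so none was a second reading of the same library. This does not show whether they came from separate animals, and libraries of different groups were not compared this way. Lists without a marker result of their own, for venous endothelium, fibroblasts, nerve and fat, gave 0 calls in both comparisons, with median log2 fold changes between tissues of −0.43, −0.40, 0.14 and −0.30.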

Additional observations from a re-analysis of the deposited data

How the results depend on the processing

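Of 7 markers, 0 were called under most settings. Between pulmonary and mesenteric artery DESeq2 called 3 markers (Reln, Mmrn1 and Sema3d), and a replicate block called 1 (Sema3d, log2 fold change 3.44, adjusted p = 0.0359). The numbers of calls over all genes in that comparison were 462 by DESeq2, 33 by limma-voom, 38 with all 9 libraries in 1 fit, 36 with the replicate block, 0 to 22 with 1 library left out (22 without pulmonary replicate 4, 0 otherwise) and 0 when pulmonary replicate 1 stood alone for its group (chosen after seeing the data). Between high-sucrose and control mesenteric artery DESeq2 called 3 genes. Shared replicate numbers were not taken as pairs, since deviations from group means correlated at 0.20, −0.28 and 0.12 for numbers 1, 2 and 3 of the mesenteric groups and at 0.17 and −0.17 for numbers 1 and 2 between tissues. In the mesenteric comparison the block gave 0 calls, and not every library correlated best with its own number.

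The log2 fold change between tissues turned for Prox1 under limma-voom (0.15) and ran from −2.11 to 0.83 with 1 library left out. It turned for Pdpn under the block (−0.17), with a range of −0.032 to 0.77. In the mesenteric comparison, leaving out 1 library gave ranges of −0.32 to 1.71 for Mmrn1, −0.52 to 1.23 for Prox1, −0.037 to 1.15 for Reln and −0.23 to 0.77 for Sema3d. The cause was not tested. Prox1, with 5 to 54 counts per library, was not tested between tissues under the stricter filter. Mean pulmonary Pdpn was 22.4 CPM on totals without mitochondrial genes, beside 17.4 CPM, and the other 41 recomputed mean levels moved by less than 1 SD.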
